A study of Homo sapiens with 6 samples.

Results

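The comparison described here sets HaCaT keratinocytes labelled MAPK14-null against wild-type HaCaT keratinocytes, both given PBS for 4 h, and rests on 1 library of each genotype. Genes were taken as members when they reached 1 RPKM (reads scaled by transcript length and library depth) in at least 1 of the 2 libraries, which 12608 of the 27945 genes in the deposited table did. Another 8795 genes were listed at 0 in both libraries and 6542 lay above 0 but under 1 RPKM. With 1 library a side there is no replicate of either group, so the genotype difference is given as a fold and no p-value belongs to it. HaCaT is a spontaneously immortalised line of human skin keratinocytes. The same series holds 2 libraries of each genotype after 4 h of IL-1α in PBS. They did not enter the 1 RPKM rule for members and served here as a second look at each difference under another condition. Members and gene lists were chosen with earlier results of these data known, so this look is not fully independent. A stranded mRNA kit was used for the libraries. It is not stated in the labels whether the knockout libraries came from 1 clone or several, whether replicates were separate cultures, or which edit was made in MAPK14.

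MAPK14 encodes p38α, the most widely expressed of the p38 mitogen-activated protein kinases. It is switched on by the kinases MKK3 and MKK6 in response to cytokines, ultraviolet light and osmotic stress, and acts through kinases such as MK2 and MSK1 on transcription factors and on proteins that control the stability of AU-rich mRNAs. In keratinocytes the pathway is known for its part in inflammatory gene expression and in the switch towards terminal differentiation, in which cells replace basal keratins and build the cornified envelope.

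The 2 libraries differed in depth and in how their reads were spread over short and long transcripts. Depth rebuilt from the deposited values was 16727850 reads for wild type and 34967681 for the knockout, against 16294076 to 29770765 in the 4 IL-1α libraries. Transcripts under 1 kb held 8.97% of the exonic reads of the unstimulated wild-type library and 6.02% of those of the knockout library. The 4 IL-1α libraries held 5.84% to 7.43%, with the first wild-type one the highest of them. Transcripts over 4 kb held 30.44% in unstimulated wild type, 32.48% in the first wild-type IL-1α library and 37.06% to 37.77% in the others. Each difference is therefore given as deposited and, where that matters, after the trend with transcript length was removed. All 10 keratinocyte markers were measured in both libraries, at a summed 4505 RPKM in wild type against 3353 RPKM in the knockout, with KRT5, KRT14 and TP63 present in each. Of 10 fibroblast markers 2 reached 1 RPKM, as did 1 of 8 melanocyte, 1 of 10 immune cell and 1 of 8 endothelial markers, and none of these 4 lists summed to more than 6.33 RPKM in either library. The fibroblast genes COL1A2, PDGFRA and THY1, the melanocyte genes TYR and TYRP1, the immune genes TYROBP and LYZ, and the endothelial genes PECAM1 and TEK were listed at 0 in both. In these bulk samples a smaller number of cells in one state and less RNA per cell cannot be told apart.

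Promoter sequence is shown for 6 of the genes with the largest differences, 4 lower and 2 higher in the knockout, so that the spread among start regions in each direction can be seen. They were chosen after the motif matches were known. Each line holds the 250 bases before the RefSeq transcription start, 5′ to 3′ on the gene's own strand, from GRCh38.p14. Capitals mark matches on either strand to 3 motifs, the AP-1 motif TGANTCA, the TATA box TATAAA and the GC box GGGCGG. The window of MMP7 lies at chr11:102530748-102530997 (minus strand), SERPINB2 at chr18:63887455-63887704 (plus strand), S100P at chr4:6693628-6693877 (plus strand), GABRP at chr5:170783475-170783724 (plus strand), BASP1 at chr5:17216573-17216822 (plus strand) and CNTN1 at chr12:40827934-40828183 (plus strand).
MMP7: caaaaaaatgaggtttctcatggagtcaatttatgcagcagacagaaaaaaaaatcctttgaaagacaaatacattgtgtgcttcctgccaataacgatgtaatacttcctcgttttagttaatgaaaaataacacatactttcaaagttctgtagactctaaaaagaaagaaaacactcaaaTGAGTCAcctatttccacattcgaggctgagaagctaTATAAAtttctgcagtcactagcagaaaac
SERPINB2: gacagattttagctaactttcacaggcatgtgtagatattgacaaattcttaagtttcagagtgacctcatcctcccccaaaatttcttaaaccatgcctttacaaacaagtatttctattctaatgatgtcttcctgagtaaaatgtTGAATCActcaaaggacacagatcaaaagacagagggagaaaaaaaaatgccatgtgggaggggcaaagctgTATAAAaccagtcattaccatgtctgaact
S100P: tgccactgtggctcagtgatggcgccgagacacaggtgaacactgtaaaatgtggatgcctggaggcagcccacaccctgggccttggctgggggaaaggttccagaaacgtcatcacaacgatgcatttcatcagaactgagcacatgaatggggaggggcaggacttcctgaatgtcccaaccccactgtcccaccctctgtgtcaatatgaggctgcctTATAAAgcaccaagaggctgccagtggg
GABRP: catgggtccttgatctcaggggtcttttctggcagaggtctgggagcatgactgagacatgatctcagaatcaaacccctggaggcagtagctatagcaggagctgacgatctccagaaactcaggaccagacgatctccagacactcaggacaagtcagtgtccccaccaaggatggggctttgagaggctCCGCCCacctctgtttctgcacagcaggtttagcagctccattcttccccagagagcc
BASP1: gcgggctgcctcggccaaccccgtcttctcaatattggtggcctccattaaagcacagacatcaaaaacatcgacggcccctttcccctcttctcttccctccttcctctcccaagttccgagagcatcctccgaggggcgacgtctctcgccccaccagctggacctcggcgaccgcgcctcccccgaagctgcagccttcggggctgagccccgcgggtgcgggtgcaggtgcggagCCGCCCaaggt
CNTN1: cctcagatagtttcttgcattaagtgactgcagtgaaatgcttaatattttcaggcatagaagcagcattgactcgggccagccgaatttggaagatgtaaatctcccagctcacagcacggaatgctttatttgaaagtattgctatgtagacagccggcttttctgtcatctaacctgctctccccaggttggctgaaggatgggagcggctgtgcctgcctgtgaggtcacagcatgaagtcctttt
Counted from the start site, the MMP7 window held an AP-1 match at -67 and a TATA box at -30. The SERPINB2 window held an AP-1 match at -102 and a TATA box at -30, and the S100P window held a TATA box at -28. The GABRP window held a GC box at -58 and the BASP1 window one at -11, both read on the opposite strand, and the CNTN1 window none of the 3 motifs. Of the 15 lowest genes 8 matched the promoter table, and 4 of the 8 held a TATA box, with GC contents from 33.6% to 66.4%. Of the 15 highest genes 9 matched, and 0 of the 9 held a TATA box, with GC contents from 47.2% to 82.4%. The ranges overlapped, and with so few genes no difference between the directions is drawn from them. Over 27305 RefSeq promoters of the same length, 6.6% held the AP-1 motif, 11.1% the TATA box and 42.3% the GC box. Of the genes at 5 RPKM or more that were 2-fold higher with and without a correction for transcript length, 66.7% matched an entry in the promoter table, as did 68.8% of those lower. Both are under the 80% needed, so the check of these sets is void and their motif shares were not compared. A match is one of letters and does not show that a factor binds there. A RefSeq start can also differ from the start of the transcript counted in the deposited table. For CNTN1 and the other genes the positions were not compared across builds. On hg19, the build of the deposited table, the 6 genes span chr11:102391239-102401484 (MMP7), chr18:61554939-61571124 (SERPINB2), chr4:6695566-6698897 (S100P), chr5:170210723-170241050 (GABRP), chr5:17216932-17276954 (BASP1) and chr12:41302159-41466213 (CNTN1).

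At a threshold of 2-fold on log2(RPKM + 0.5), 313 members (2.48%) were higher in the unstimulated knockout and 531 (4.21%) were lower. The 2 directions differed in transcript length, with a median of 3266 bases for the higher genes and 724 bases for the lower ones. Of members under 200 bases 41.42% were at least 2-fold lower, and of members over 8 kb 0.18% were. Among members reaching 5 RPKM, 1.33% were higher and 3.95% lower, and without the length trend 1.52% and 1.58%. The median difference went from -0.78 for the shortest class through 0.00 between 2 and 4 kb to 0.39 for the longest. A slope with length also separated the 2 wild-type IL-1α libraries, although they share genotype and treatment. Taken as the first minus the second, it was 0.27 for transcripts of 200 to 500 bases and -0.36 over 8 kb. Its sign depends only on which replicate is subtracted. After the trend with length was subtracted, 414 genes (3.28%) were at least 2-fold higher and 229 (1.82%) lower. The trend, fitted on members at 5 RPKM or more, left medians of 0.26 under 200 bases and 0.13 from 200 to 500 bases. The rise in higher genes was not seen in protein-coding members, of which 256 were higher before and 251 after. Of the same members 327 were lower before and 174 after. On both scales 245 genes were higher and 202 lower, which are 78.3% and 38% of the genes called on the deposited values. These are called here higher, or lower, on both scales. As a background for the lists below, 6099 of the 12608 members were above wild type and 6507 below. With the length trend removed 6633 were above and 5975 below.

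**Figure D1:**
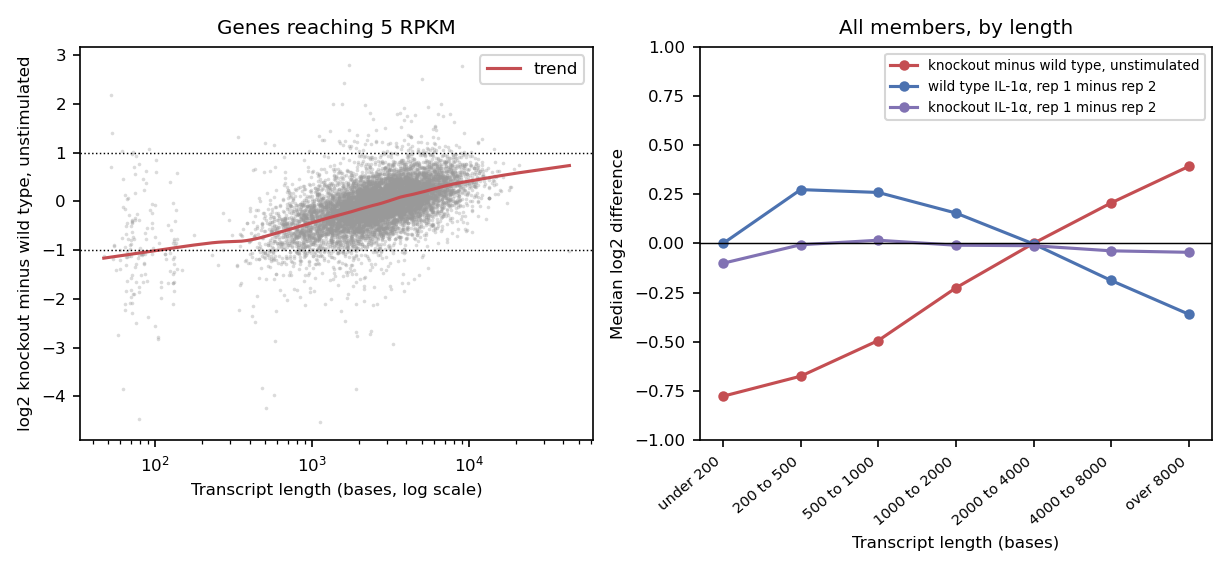
Left, log2 difference of the unstimulated knockout from wild type against transcript length in bases (log axis) for the 8882 members reaching 5 RPKM, with the fitted trend in red and 2-fold marked by dotted lines. Right, median log2 difference by length class for the same pair and for the 2 pairs of IL-1α replicates, the first minus the second. The wild-type pair also slopes, with a sign set by the order of subtraction, and the knockout pair stays between -0.10 and 0.02.

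As deposited, the unstimulated pair was further apart than replicate pairs of 1 genotype, but without the length trend it came near the knockout pair. At least 2-fold apart were 6.69% of members in the unstimulated pair, 1.05% between the 2 wild-type IL-1α libraries and 4.02% between the 2 knockout IL-1α libraries. The first knockout IL-1α library differed in this way from the wild-type ones in 5.8% and 3.91% of members, and the second in 6.22% and 4.37%. Among the 8882 members that reached 5 RPKM, where sampling noise is smaller, the figures were 5.28% for the unstimulated pair, 0.30% for the wild-type replicates and 2.57% for the knockout replicates. Without the length trend these became 3.10%, 0.29% and 2.70%, and over all members 5.10%, 1.21% and 4.20%, so most of the gap to the knockout replicates went with transcript length. The knockout replicates lay further from each other than the wild-type replicates did. At the lower edge of membership, 17 of 167 genes between 1 and 1.1 RPKM were 2-fold apart, and 32 of 176 just outside, between 0.9 and 1 RPKM, were.

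MAPK14 itself (chr6:35995454-36079013 on the plus strand, hg19 as in the deposited table) stood at 14.4 RPKM in unstimulated wild type and at 11.3 RPKM in the unstimulated knockout. After IL-1α it was at 13.3 and 14.8 RPKM in wild type against 10.99 and 7.41 RPKM in the knockout. The transcript was thus detected in every library labelled knockout, at 1.28-fold less in the unstimulated one, and a count over all exons does not measure protein. The other p38 genes, each encoding a related kinase, stayed within 2-fold: log2 differences were 0.11 for MAPK11, 0.34 for MAPK12 and 0.12 for MAPK13.

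Upstream of p38, the 1 gene of the pathway lists past 2-fold was MAP2K6, which encodes MKK6. It was at 0.612 RPKM in unstimulated wild type and 3.87 RPKM in the knockout, a 6.32-fold higher level (exact 95% interval of the read ratio 3.96 to 10.7, counting error only), from 19 and 251 reads. The IL-1α libraries gave 0.430 and 0.524 RPKM in wild type against 3.15 and 1.79 RPKM in the knockout. The genotypes did not overlap, but 32.6% of all members were likewise higher in all 4 pairings of a knockout with a wild-type library. The IL-1α difference did not pass (limma, adjusted p = 0.15). MAP2K3, which encodes MKK3, was at 45.2 and 51.7 RPKM. Of 17 activators and scaffolds measured, 13 were above 0 on the log2 scale (6099 of all 12608 members were), with a median of 0.32. None of 19 substrates and effector kinases, 13 phosphatases or 13 factors of AU-rich mRNA decay was 2-fold apart. HSPB1, the small heat-shock protein at the end of the p38 to MK2 branch, was at 418 RPKM in wild type against 261 RPKM in the knockout, a log2 difference of -0.68 that came to -0.20 without the length trend.

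The genes furthest below wild type were led by MMP7, S100P and S100A9. MMP7, or matrilysin, a small protease of epithelial cells, went from 13.4 RPKM in wild type to 0.102 RPKM in the knockout, or from 250 reads to 4. That is 131-fold lower, with an exact interval for the ratio of knockout to wild type from 0.0021 to 0.0198. Under IL-1α it was at 27.1 and 16.1 RPKM in wild type against 1.02 and 3.58 RPKM in the knockout. The genotypes did not overlap, as in 16.2% of all members in this direction, and the fall did not pass (limma, adjusted p = 0.101). S100P, a calcium-binding protein, was at 105 and 5.09 RPKM, 20.7-fold lower, from 891 and 90 reads. Its IL-1α values were 32.3 and 23.6 RPKM in wild type against 4.24 and 5.64 RPKM in the knockout (limma, adjusted p = 0.042). S100A9, a subunit of calprotectin, was at 7.32 RPKM in wild type against listed at 0 in the knockout, which against a floor of 3 reads in that library is at least 48.8-fold lower. Under IL-1α it was detected in the knockout, at 3.51 and 4.29 RPKM beside 10.2 and 9.71 RPKM in wild type. WNT11, a secreted Wnt ligand, was at 8.25 and 0.104 RPKM.

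GABRP, the pi subunit of the GABA-A receptor, was at 26.5 RPKM in unstimulated wild type and 3.07 RPKM in the knockout. With IL-1α it was at 11.7 and 11.3 RPKM against 2.40 and 1.61 RPKM, and the fall passed (limma, adjusted p = 0.042). TNFRSF11B, which encodes osteoprotegerin, the decoy receptor for RANKL, was at 11.3 and 1.30 RPKM without stimulation. Its IL-1α values of 21.6 and 18.2 RPKM in wild type against 2.25 and 2.20 RPKM in the knockout differed by -2.90 ± 0.18 on the log2 scale (limma estimate and standard error, adjusted p = 0.028). MYEOV was at 14.9 and 1.96 RPKM, and CYB5R1, a cytochrome b5 reductase, at 64.9 and 11.4 RPKM. In CYB5R1 the second knockout IL-1α library (34.8 RPKM) lay nearer to wild type (64.0 and 52.96 RPKM) than the first (10.9 RPKM). The other 6 of the 15 lowest, LGALS7B, SLURP2, ATP6V1B1, PHGR1, RPL39 and SAA2, had log2 differences from -3.84 to -2.25, as did SERPINB2 at -2.68. RPL39 stood at 152 RPKM in unstimulated wild type alone, with 29.5 RPKM in the knockout and 37.7 to 50.4 RPKM in all 4 IL-1α libraries.

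The genes furthest above wild type were led by BASP1, ZNF618 and DPYSL3. BASP1, a membrane-bound protein of growth cones, was at 4.51 RPKM in wild type against 34.5 RPKM in the knockout, 7.64-fold higher (exact interval 6.39 to 9.19), from 129 and 2059 reads. Under IL-1α it was at 8.33 and 7.54 RPKM in wild type against 42.8 and 40.02 RPKM in the knockout, and the rise passed (limma, adjusted p = 0.028). CALB2, the calcium buffer calretinin, was at 10.0 and 41.3 RPKM, and under IL-1α at 7.42 and 6.52 RPKM against 36.8 and 30.1 RPKM (limma, adjusted p = 0.0342). The zinc-finger gene ZNF618 was at 0.591 and 7.04 RPKM and the protease inhibitor gene SERPINE2, or protease nexin 1, at 2.58 and 11.7 RPKM. MYH10, non-muscle myosin IIB, was at 1.999 and 8.16 RPKM. In these 3 genes both knockout IL-1α libraries were above both wild-type ones, as in 32.6% of all members. None of the 3 passed, with adjusted p from 0.0512 for SERPINE2 to 0.112 for ZNF618 (limma).

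Not all of the highest genes behaved alike in the 2 knockout IL-1α libraries. DPYSL3, a collapsin response mediator protein, was at 4.04 RPKM in unstimulated wild type and 25.2 RPKM in the knockout. The first knockout IL-1α library had 22.4 RPKM, the second 1.02 RPKM, and wild type 2.55 and 3.75 RPKM, so the second library lay below wild type. SIRPA, the receptor for CD47, was at 2.03 and 9.06 RPKM without stimulation and, after IL-1α, at 8.46 RPKM in the first knockout library and 0.845 RPKM in the second. KCNS3, a potassium channel subunit, was likewise at 7.01 RPKM in the first and 0.716 RPKM in the second. Among the 15 highest, DPYSL3, SIRPA, KCNS3 and RTN4RL1 changed sign when the first knockout IL-1α library was left out. The unstimulated group has no second library in which to look for such a split. RIMKLB, the imprinted gene PEG10, the neural adhesion gene CNTN1, the acetyl-CoA synthetase gene ACSS1 and the R-cadherin gene CDH4 were also among the 15 highest, with log2 differences from 1.80 to 2.43.

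**Figure D2:**
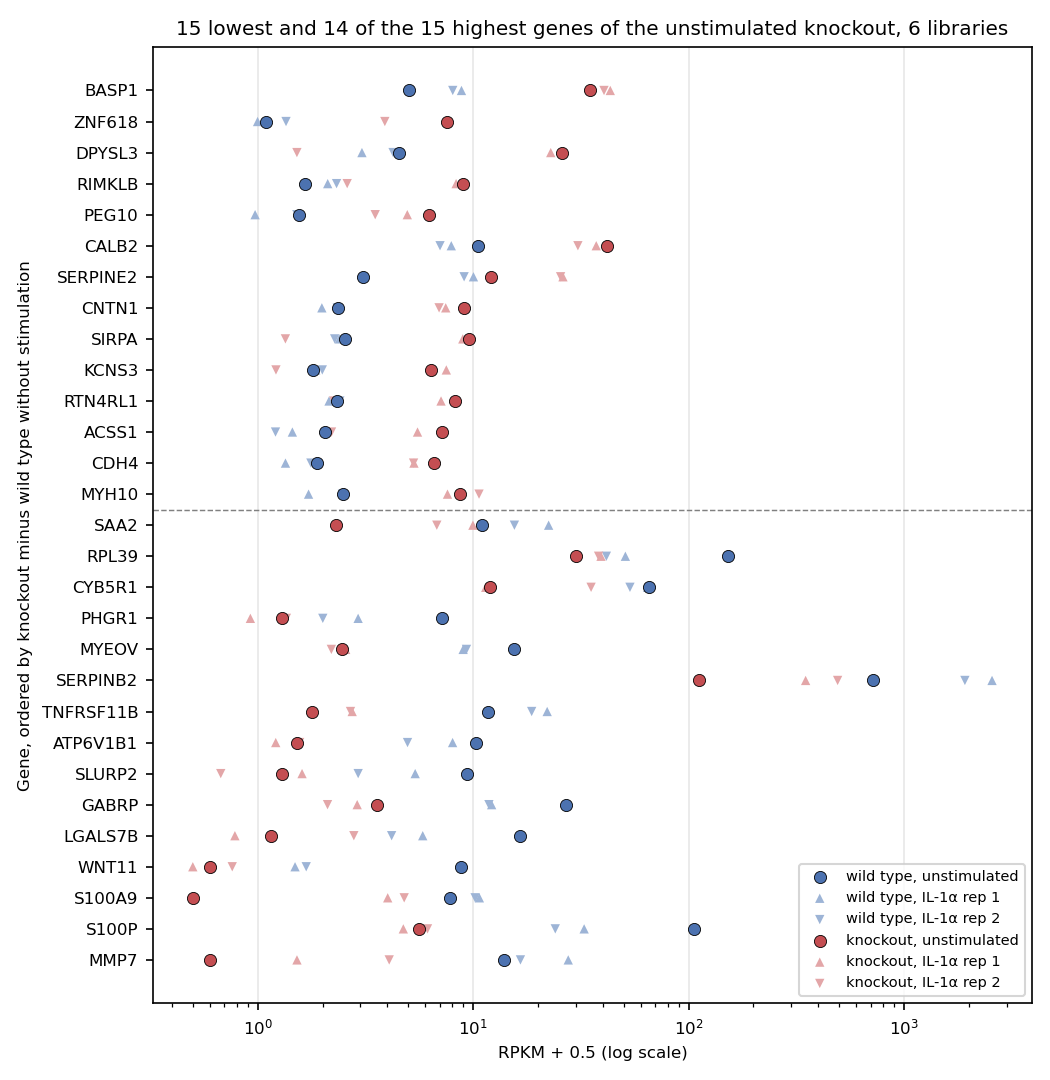
RPKM + 0.5 (log axis) of the 15 lowest and 14 of the 15 highest named genes in the 6 libraries, ordered by the unstimulated difference. Circles are the unstimulated libraries and triangles the IL-1α replicates, blue for wild type and red for the knockout. BASP1 and TNFRSF11B keep the genotypes apart in all libraries, while the second knockout replicate of DPYSL3 (1.02 RPKM) lies with wild type.

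Keratins were lower in the unstimulated knockout, most of all those of suprabasal and mucosal layers. KRT13, a keratin of stratified mucosa, was at 2535 RPKM in wild type against 641 RPKM in the knockout, and its partner KRT4 at 428 and 103 RPKM. KRT10, the suprabasal keratin of epidermis, was at 119 and 40.1 RPKM and KRT23 at 3.58 and 0.701 RPKM. All 5 measured members of the list were below wild type and 4 were at least 2-fold lower on both scales. Of all 12608 members 6507 were below wild type and 202 lower on both scales. The list median was -1.76 (-1.53 without the length trend) against -0.02 for all members. In the IL-1α libraries KRT13 was at 1849 and 1302 RPKM in wild type against 419 and 179 RPKM in the knockout, while for KRT4 the second knockout library (176 RPKM) was close to wild type (201 and 209 RPKM). Neither passed (limma, adjusted p = 0.116 and 0.376). All 12 basal, wound and simple keratins were also below wild type, with a median of -0.41. KRT17, a keratin of wounded and activated epidermis, was at 2245 and 778 RPKM and its relative KRT16 at 12.6 and 3.03 RPKM. Keratins share stretches of sequence, and how reads that fit several genes were assigned is not given in the sources used here, so single members are less certain than the group.

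Several genes of the cornified envelope were lower. IVL, the envelope protein involucrin, was at 130 RPKM in wild type against 36.8 RPKM in the knockout, and KLK7, a protease of desquamation, at 22.6 and 4.86 RPKM. SPRR2A and SPRR2D, small proline-rich envelope proteins, were already lower at their low unstimulated levels, at 4.80 and 1.105 RPKM and at 1.85 and 0.253 RPKM. After IL-1α SPRR2A stood at 483 and 295 RPKM in wild type against 58.5 and 50.6 RPKM in the knockout, a fall that passed (limma, adjusted p = 0.042). Of 32 listed genes 13 were measured, 6 of them at least 2-fold lower, or 5 without the length trend, and none was 2-fold higher. Over all members 4.21% were lower, or 1.82% without the trend. The list median of -0.90 came to -0.20 without the trend. Of the 13 genes 5 lie on chromosome 1, and with the chromosome medians also removed 3 were 2-fold lower. Of 13 kallikreins and inhibitors 12 were below wild type (6507 of all 12608 members were), and KLK10 was at 117 and 52.8 RPKM.

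S100 and antimicrobial proteins, most of them encoded by short transcripts, were lower. All 11 measured S100 genes were below wild type and 9 were at least 2-fold lower, with a median of -1.22. Without the length trend 3 were, with a median of -0.76. Over all members 4.21% were 2-fold lower, or 1.82% without the trend. S100A10, the partner of annexin A2, was at 1177 and 395 RPKM, S100A16 at 549 and 198 RPKM and S100A4 at 62.5 and 20.2 RPKM. Of these 11 genes 10 lie on chromosome 1, where the median gene at 5 RPKM or more was at -0.37 on the log2 scale, and with the chromosome's own median also removed 1 S100 gene remained 2-fold lower. That gene, S100P, lies on chromosome 4. All 11 antimicrobial and acute-phase genes measured were below wild type, 8 at least 2-fold and 5 without the length trend. LCN2, the iron-siderophore binding protein lipocalin 2, was at 81.5 and 20.6 RPKM, and in the IL-1α libraries at 471 and 342 RPKM against 161 and 150 RPKM (limma, adjusted p = 0.0949). The psoriasin gene S100A7 was at 4.27 and 0.395 RPKM.

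Proteases, their inhibitors and secreted regulators held some of the most abundant genes of the comparison. SERPINB2, plasminogen activator inhibitor 2, was at 716 RPKM in wild type against 111 RPKM in the knockout, 6.42-fold lower on 22739 and 7399 reads. PLAT, tissue plasminogen activator, was at 7.54 and 1.81 RPKM, so the activator and this inhibitor were both lower. Both falls also passed under IL-1α (limma, adjusted p = 0.0492 for SERPINB2 and 0.028 for PLAT). IGFBP3, a binding protein that carries insulin-like growth factors, was at 613 and 143 RPKM without stimulation, and at 945 and 841 RPKM against 186 and 200 RPKM with IL-1α (limma, adjusted p = 0.0342). The collagenase gene MMP13 was at 4.97 and 1.395 RPKM. The gelatinase gene MMP2 went the other way, at 30.1 and 70.1 RPKM, but the 2 knockout IL-1α libraries were split at 56.8 and 17.1 RPKM around the wild-type 23.9 and 26.2 RPKM. Of 10 mucins 4 were measured, all below wild type (6507 of all 12608 members were). MUC4 was at 8.74 and 2.39 RPKM and MUC1 at 10.8 and 4.05 RPKM. MUC1 lies on chromosome 1. Without the length trend 3 mucins were 2-fold lower, beside 1.82% of all members. With the chromosome medians also removed 2 were, beside 196 of all 12608 members. MUC16, the longest named transcript at 43730 bases, was at 8.35 and 3.90 RPKM, and its log2 difference of -1.01 was -1.74 without the length trend.

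Of 12 interleukin-1 family and receptor genes measured, 4 were above wild type and 8 below before any IL-1α was added. At least 2-fold apart were 4 of the 12, 2 in each direction, beside 6.69% of all members. IL1R1, the signalling receptor, was at 10.6 RPKM in wild type against 3.38 RPKM in the knockout, 3.13-fold lower (571 reads in the knockout). IL1R2, the decoy receptor, was at 4.59 and 1.48 RPKM. IL1A was 3.17-fold higher, at 1.45 and 4.61 RPKM, and IL1B 2.44-fold higher, at 9.07 and 22.1 RPKM. The ligand gene IL18 and the antagonist gene IL1RN were both at -0.50 on the log2 scale and the co-receptor gene IL1RAP at -0.02, all within 2-fold. The 4 genes past 2-fold lie on chromosome 2, whose median difference was 0.02. In the IL-1α libraries the genotypes did not overlap for any of these 4 and the directions were the same. Of all members 32.6% were likewise higher, and 16.2% lower, in all 4 pairings of a knockout with a wild-type library. IL1R1 was at 2.76 and 5.06 RPKM in the knockout beside 12.1 and 11.5 RPKM in wild type. None of the 4 passed (limma, adjusted p from 0.133 to 0.225). The chemokine CXCL8 was at 17.7 and 6.19 RPKM without stimulation, CXCL6 at 9.48 and 3.15 RPKM and CXCL1 at 19.4 and 8.71 RPKM. All 4 CXC chemokines measured were below wild type (6507 of all 12608 members were). PTGS2, the inducible cyclooxygenase, was at 10.5 and 3.15 RPKM, with IL-1α values of 14.4 and 12.4 RPKM against 5.06 and 4.50 RPKM (limma, adjusted p = 0.073). None of 24 NF-κB subunits and inhibitors was 2-fold apart, with a median of 0.10.

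Among genes of the TGF-β family 2 of 20 were at least 2-fold higher, and 3 without the length trend. Over all members 2.48% were higher, or 3.28% without the trend. BMP7, a bone morphogenetic protein, was at 4.67 and 17.0 RPKM, and INHBA, the activin A subunit, at 1.51 and 5.38 RPKM. INHBA did not differ in one direction under IL-1α, at 10.6 and 4.43 RPKM in the knockout around 7.09 and 7.92 RPKM in wild type. Of 20 genes of TGF-β, activin and BMP signalling 16 were above wild type, as were 6099 of all 12608 members. The list median was 0.45 (0.22 without the length trend). The Notch ligand gene JAG1 was at 17.0 and 34.7 RPKM, and its log2 difference of 1.01 was 0.76 without the length trend. The Notch target gene HEY1 was at 0.418 and 1.76 RPKM, or 1.30 on the log2 scale and 1.41 without the length trend. EGFR, the receptor for epidermal growth factor, was at 58.5 and 103 RPKM, a 1.77-fold difference (0.82 on the log2 scale, 0.55 without the length trend), and none of 15 EGF receptor, ligand and feedback genes was 2-fold apart.

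Of 24 measured genes of the ATF4 integrated stress response 19 were below wild type and 4 at least 2-fold lower on both scales. Among all 12608 members 6507 were below wild type and 202 lower on both scales. CHAC1, a glutathione-degrading enzyme, was at 23.3 and 4.53 RPKM, DDIT4, an inhibitor of mTORC1, at 166 and 63.8 RPKM, CTH at 6.33 and 1.77 RPKM and SESN2 at 6.33 and 2.42 RPKM. CTH and SESN2 lie on chromosome 1. With the length trend and the chromosome medians removed, 3 genes of the list were 2-fold lower. Of 47 cell cycle and mitosis genes 34 were above wild type (6099 of all 12608 members were), with a median of 0.31 on either scale. The proliferation marker MKI67, at 41.5 and 97.2 RPKM, was the only one of the 47 past 2-fold, and without the length trend its log2 difference of 1.22 came to 0.77. The first wild-type IL-1α library had 43.8 RPKM of MKI67 and the second 82.6 RPKM, beside 99.8 and 83.5 RPKM in the knockout. Of 11 replication-dependent histone genes 10 were below wild type, with a median of -0.90 (-0.41 without the length trend). At least 2-fold lower were 3, or 0 without the trend, beside 4.21% and 1.82% of all members. Heat-shock proteins had a median of 0.22, with HSPA8 at 1093 and 1565 RPKM.

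Ribosomal protein and respiratory chain genes, whose transcripts are short, differed mostly along the length trend. That trend was fitted in the same 2 libraries, so lists of short or long transcripts move towards 0 by construction when it is subtracted. All 71 cytosolic ribosomal protein genes measured were below wild type, with a median of -0.76, and 17 were at least 2-fold lower. Without the length trend the median was -0.24 and 3 were. Over all members 4.21% were 2-fold lower, or 1.82% without the trend. For 44 subunits of oxidative phosphorylation the median went from -0.63 to -0.10 and the number from 10 to 0. In the other direction, 24 broadly expressed genes with a median length of 13840 bases had a median of 0.49, which came to 0.00. The lists of suprabasal keratins, mucins and CXC chemokines then had medians of -1.53, -1.42 and -0.97.

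**Figure D3:**
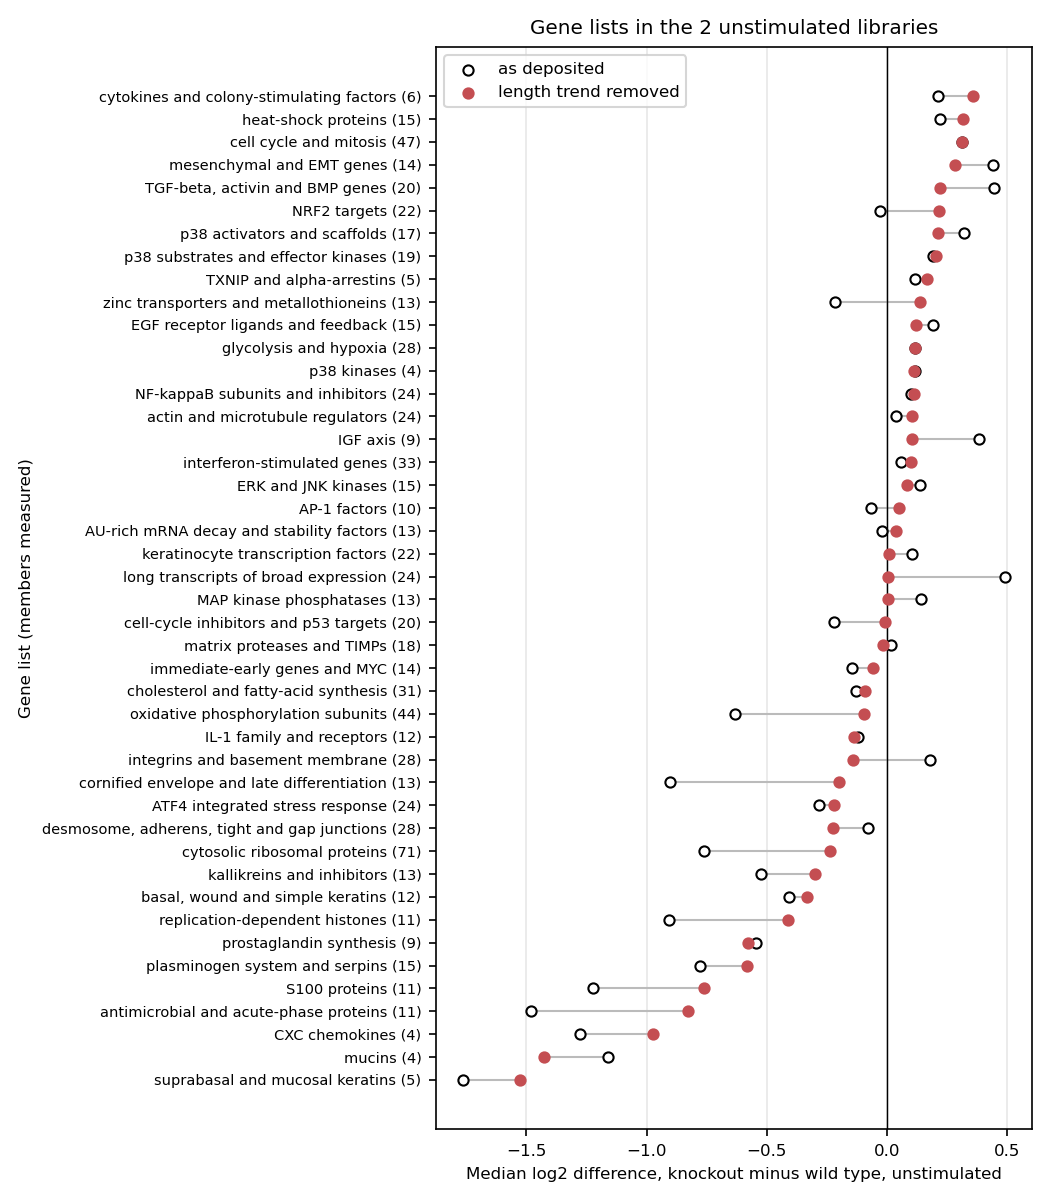
Median log2 difference of the unstimulated knockout from wild type for each list with at least 4 measured genes, as deposited (open) and without the length trend (red), with the number of measured genes in brackets. Ribosomal proteins and oxidative phosphorylation subunits shift towards 0, and suprabasal and mucosal keratins remain at -1.53.

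The 4 IL-1α libraries, which played no part in the unstimulated difference, gave a test of genotype under that condition. In limma 20 of 12925 genes passed at an adjusted p of 0.05 (0.155%), 6 higher (0.0464%) and 14 lower (0.108%) in the knockout. Of the 14 lower, all were at least 2-fold lower without stimulation (100% of the passing genes and 2.64% of the 531). Of the 6 higher, 4 were at least 2-fold higher (66.7% and 1.28% of the 313): ADAMTS12, BASP1, CALB2 and ESM1. The exceptions were STMN3, with a log2 difference of 0.89 without stimulation, and TXNIP, with 0.37. TXNIP, the inhibitor of thioredoxin, was at 24.2 and 31.3 RPKM without stimulation, and at 5.78 and 7.002 RPKM in wild type against 27.2 and 33.3 RPKM in the knockout with IL-1α. Whether the genotype difference itself changed with IL-1α was tested as an interaction, and none of the 12925 genes passed (567 had an unadjusted p under 0.05, and for TXNIP the adjusted p was 0.966). With any 1 of the 4 IL-1α libraries left out no gene passed the genotype test either, while 575 to 2545 had an unadjusted p under 0.05. The interaction test had 1 unstimulated library of each genotype and assumed that they vary like the IL-1α ones. That no gene passed it does not show an unchanged genotype difference. ESM1, ADAMTS12 and STMN3 were named for their IL-1α result after it was seen, except that ADAMTS12 also belonged to a list.

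By direction alone, of the 245 genes higher on both scales without stimulation 222 (90.6%) were also higher on average under IL-1α, beside 61.2% of all members, and 164 (66.9%) were higher in all 4 pairings of a knockout with a wild-type library. Among all members 32.6% were higher in all 4. Of the 202 lower on both scales 180 (89.1%) were lower on average, beside 38.8% of all members, and 132 (65.3%) were lower in all 4 pairings, against 16.2% of all members. The 2 knockout IL-1α libraries were not equal in this. For the 245 higher genes the median difference from the wild-type mean was 1.22 in the first knockout library and 0.51 in the second, and for the 202 lower genes it was -0.98 and -0.70. The 329 genes that were lower only on the deposited values had a median of -0.23 under IL-1α and 34.7% were lower in all 4 pairings. Of the 844 genes at least 2-fold apart without stimulation, 35 pointed the other way in all 4 pairings.

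The genotype difference also varied along the chromosomes, for the 8882 members reaching 5 RPKM and with the length trend removed. On chromosome 1, 928 genes had a median of -0.37 in the unstimulated knockout and 86.5% of them lay below 0. The first knockout IL-1α library had a median of -0.36 there and the second -0.07, each against the mean of the 2 wild-type IL-1α libraries. Chromosome 14 had medians of -0.16, -0.16 and 0.21 in the same order, and chromosome 22 had 0.14, 0.12 and -0.31. Chromosome 6 was lower in all 3, at -0.22, -0.21 and -0.18, as were chromosome 18, at -0.16, -0.13 and -0.20, and chromosome 1. The 2 wild-type replicates differed by at most 0.043 in the median of any chromosome. In these chromosome medians the unstimulated knockout library went with the first knockout IL-1α library and not with the second. Chromosome 1 held 56 of the 202 genes lower on both scales (4.16% of its 1345 members) and 5 of the 245 higher ones (0.37%). DNA copy number was not measured, and whether the libraries came from different clones is not stated.

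**Figure D4:**
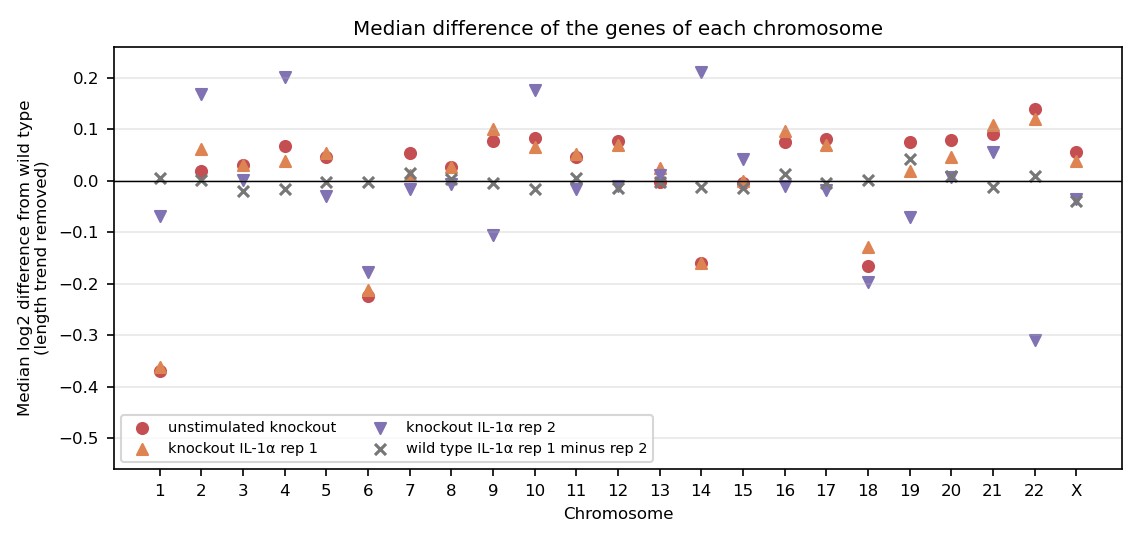
Median log2 difference from wild type, without the length trend, of the genes of each chromosome that reached 5 RPKM, for the 3 knockout libraries, with the difference between the 2 wild-type IL-1α replicates as crosses. Chromosome 1 lies at -0.37 and -0.36 in the unstimulated and first IL-1α knockout libraries and at -0.07 in the second.

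On chromosome 6 the levels on the 2 sides of MAPK14, the gene named as knocked out, differed in all 3 knockout libraries. The 20 measured genes next before MAPK14 had a median of -0.44 in the unstimulated knockout, -0.42 in the first knockout IL-1α library and -0.05 in the second. For the 20 genes next after it the medians were -0.24, -0.19 and -0.72. In the second library all 20 genes after MAPK14 were below the wild-type mean, and 12 of the 20 before it were. Steps of this size were not particular to MAPK14 in the unstimulated knockout, whose running median over 21 genes went from -0.32 to -0.019 between 8.196 and 8.36 Mb after the gene's start. Over wider stretches, the 89 genes before MAPK14 had medians of -0.34, -0.41 and -0.03, and the 81 genes within 24 Mb after it -0.16, -0.15 and -0.56. MAPK14 itself, at -0.48 in the unstimulated knockout without the length trend, was near the median of the 20 genes before it. The 15 genes of the epidermal differentiation complex on chromosome 1, which holds IVL and most S100 and SPRR genes, had medians of -0.69, -0.64 and -0.49, and all 15 were below 0 in each of the 3 libraries. Elsewhere on chromosome 1 the genes beyond 200 Mb had medians of -0.31, -0.28 and 0.20.

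**Figure D5:**
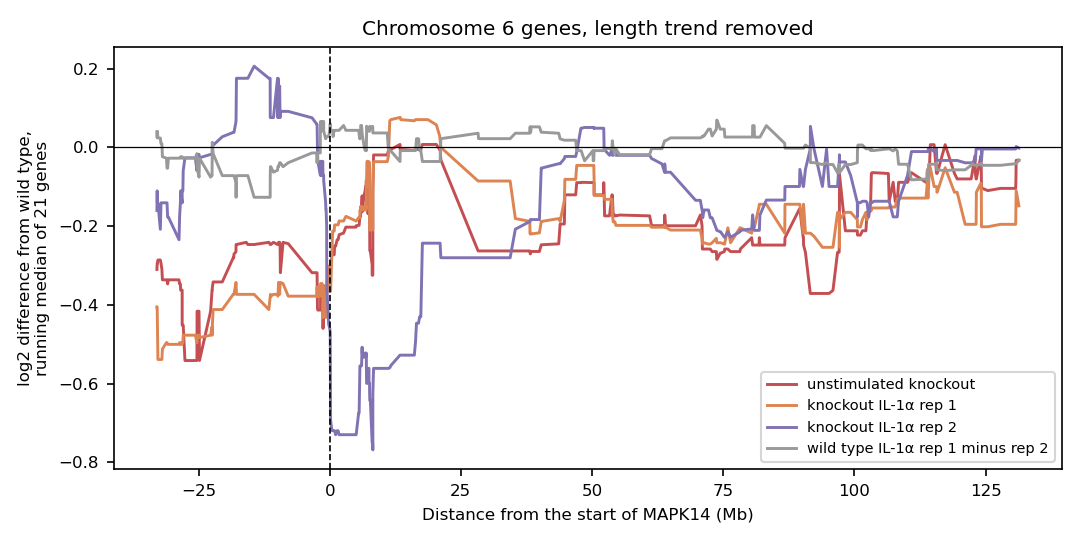
Running median over 21 genes of the log2 difference from wild type, without the length trend, along chromosome 6 by distance from the start of MAPK14 in Mb (dashed line at 0). The second knockout IL-1α library drops at MAPK14, where the 20 genes before it have a median of -0.05 and the 20 after it -0.72, and the other 2 knockout libraries move the other way.

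Each chromosome's own median was then also removed, a step chosen after the chromosome medians had been seen. The suprabasal and mucosal keratins had a median of -1.61 after this step, the CXC chemokines -1.04, the mucins -1.32 and the antimicrobial genes -0.91. The S100 list went from -0.76 to -0.39. Over all members 419 genes were then at least 2-fold higher and 196 at least 2-fold lower. What part chromosome, clone or culture had in the single-gene differences was not tested, since the unstimulated comparison has 1 library of each genotype.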

How the data were processed

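RNA was measured in 6 HaCaT libraries. Per the submitters' processing notes, the tools included bcl2fastq (2.20.0.422), STAR and HOMER, the last 2 without stated versions. The deposited values are RPKM on hg19 for exons, 1 line per gene, per the file headers, which also write the unit FPKM. The strand setting, which bears on overlapping genes, is not given in the sources used here.

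Differences are of log2(RPKM + 0.5), the knockout minus wild type. A fold is a ratio of RPKM. Reads were rebuilt as RPKM times length times depth, where depth made 97.94% to 99.83% of the values between 0.02 and 1 RPKM whole within 0.1 read. Rebuilt reads served only for exact 95% binomial intervals, which cover counting error only, and for a floor of 3 reads. The length trend was a lowess curve (span 0.3, statsmodels 0.14.6) on log length, fitted on members at 5 RPKM or more and subtracted. The IL-1α genotype difference and the interaction were fitted in limma (3.58.1, R 4.3.3) over 12925 genes reaching 1 RPKM in any library, with 1 coefficient per group, eBayes with trend, and Benjamini-Hochberg adjustment. Residual degrees of freedom were 2, with 4.2 prior degrees, so p-values measure only the spread between these libraries, which may be technical. Both procedures were tested on simulated data.

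Members and the 50 gene lists were chosen with earlier results of these data known. Named genes were the 15 highest and 15 lowest at 5 RPKM or more, without antisense, LOC, LINC, MIR, SNOR, pseudogene or multi-place genes, up to 4 list members past 2-fold, the 2 most abundant of a list with fewer than 2, and the 4 p38 kinases. Marker genes and KRT5, ESM1 and STMN3 were named beside this rule. Of the 15 highest, 1 is not reported here. Of 12608 members 78.2% matched RefSeq promoters. Alternatives varied the pseudocount, scaling, filter, length correction, depth, trend and libraries.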

Additional observations from a re-analysis of the deposited data

How the results depend on the processing

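The unstimulated fold was recomputed under pseudocounts of 0.1 and 1, size factors, quantile normalization and the length correction. Of the 97 named genes past 2-fold without stimulation, 72 stayed past 2-fold in all 5 (77 of the 97 under the length correction). All 97 kept their sign, but a pseudocount cannot change a sign and the size factors, 0.9935 and 1.0065, hardly could. These genes were chosen in the same 2 libraries, so the kept signs are no independent check. The 313 higher genes became 194 with a pseudocount of 1 and 118 at 5 RPKM or more. The 531 lower genes became 229 without the length trend, 351 at 5 RPKM or more and 207 without transcripts under 1 kb. In settings chosen after seeing the data they became 327 with protein-coding genes alone and 343 without chromosomes 1, 6 and 14. The 20 genes passing the IL-1α genotype test became 62 with the replicate number as a block, 7 with a pseudocount of 0.1, 88 at 5 RPKM or more and 43 without the length trend. None passed with no filter on low values (2637 at an unadjusted p under 0.05) or no mean-variance trend (1879), nor without any 1 library (0 to 0 genes, limma). Same-numbered libraries did not deviate together across genes (r = -0.02). That 1 value cannot show whether the numbers pair the samples, since the knockout replicates also differ along whole chromosomes. The interaction gave 87 genes with no filter and 0 in the other settings run, where 183 to 1665 had an unadjusted p under 0.05. Without the first knockout IL-1α library the sign reversed for DPYSL3, SIRPA, KCNS3, RTN4RL1 and MAPK13. Leaving out 1 library gave -1.24 to 2.67 for DPYSL3, -0.80 to 1.94 for SIRPA, -0.66 to 1.96 for KCNS3, -0.012 to 1.64 for RTN4RL1 and -0.27 to 0.32 for MAPK13. MAPK13 also reversed with size factors (-0.085) and without the length trend (-0.13). For the changes whose construction does not show it, the cause was not tested. Depth limits genes near 1 RPKM most.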

Other observations

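Some gene groups were nearly level in the 2 unstimulated libraries. Of 33 interferon-stimulated genes 19 were above wild type and 14 below, with a median of 0.06. At least 2-fold lower were ISG15 and SAMD9L, or 1 gene without the length trend, beside 4.21% and 1.82% of all members. ISG15, a ubiquitin-like protein, was at 61.6 and 25.8 RPKM, but its log2 difference of -1.24 was -0.63 without the length trend. SAMD9L was at 3.48 and 1.47 RPKM, a log2 difference of -1.01 that was -1.30 without the length trend, and its IL-1α values were 6.59 and 7.26 RPKM in wild type against 3.47 and 2.06 RPKM in the knockout. Of 28 glycolysis and hypoxia genes none was 2-fold apart (median 0.12), and GAPDH was at 1956 and 1844 RPKM. None of 28 junction genes was 2-fold apart either, with the plakoglobin gene JUP at 631 and 465 RPKM. Of 28 integrin and basement membrane genes 1 was at least 2-fold higher, near the 2.48% of all members that were. It was ITGA1, the α1 subunit of a collagen receptor, at 0.627 and 2.54 RPKM. Its IL-1α values were 0.657 and 0.736 RPKM in wild type against 3.45 and 1.11 RPKM in the knockout.

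The second knockout IL-1α library had 8.87 RPKM of the chemokine gene CCL2, beside 206 RPKM in the first and 201 and 172 RPKM in wild type. Without stimulation CCL2 was at 9.75 RPKM in wild type against 12.6 RPKM in the knockout. SLC39A2, a zinc importer, was at 13.6 RPKM in unstimulated wild type and at 4.39 RPKM in the unstimulated knockout, and all 4 IL-1α libraries lay between 2.76 and 3.22 RPKM.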
